A study of Mus musculus with 20 samples.

Results

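The 10 genes described here mark the blood-brain barrier (10 of 31053 genes in the count tables). They were followed in single-cell libraries of the mouse basolateral amygdala (BLA), taken by symbol: Cldn5, Ocln, Tjp1, Mfsd2a, Slc2a1, Abcb1a, Abcg2, Slco1a4, Slco1c1 and Slc7a5. They were chosen for their role and not for their values, although earlier results of these data were known. Each symbol stood for a single row of the tables. The question was where these genes were transcribed in the BLA and whether their transcript levels in endothelial cells moved with corticosterone or with ketamine.

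All mice were wild-type C57BL/6 males of 13 weeks. For 6 weeks they drank either corticosterone at 35 µg/ml (CORT) or the cyclodextrin vehicle (BCD), and 24 h before tissue collection they received either ketamine at 10 mg/kg (Ket) or saline (Sal). The sample labels name BCD for the controls, whereas the methods of the single-cell experiment speak of plain drinking water, and the labels were followed. The 4 groups were BCD/Sal (mice 9901 and 9947), BCD/Ket (mice 9946, 9949 and 9986), CORT/Sal (mice 9969 and 9970) and CORT/Ket (mice 9967, 9968 and 9971), with 1 droplet library a mouse. Corticosterone is the main glucocorticoid of mice and is given as a model of chronic stress, and ketamine is an NMDA receptor antagonist with antidepressant effects.

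The endothelium of brain capillaries differs from that of other organs in its sealed junctions and its set of transporters. Claudin-5 (Cldn5) and occludin (Ocln) are membrane proteins of the tight junction, and ZO-1 (Tjp1) is the scaffold that ties them to the actin cytoskeleton. Mfsd2a carries lysophospholipids with docosahexaenoic acid into the brain and restrains transcytosis. Slc2a1 (GLUT1) is the glucose transporter, Slc7a5 (LAT1) carries large neutral amino acids, Slco1c1 (OATP1C1) takes up thyroxine, and Slco1a4 (OATP1A4) moves bile salts, steroid conjugates and drugs. Abcb1a (P-glycoprotein) and Abcg2 (BCRP) are pumps that return drugs and other lipophilic compounds to the blood.

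Of 28722 barcodes, 8305 passed the limits of 12.5% mitochondrial transcripts and 200 detected genes, and 1102 of them formed the cluster named endothelial, which 7 of its 50 leading genes marked as such. The 10 genes were left out of the genes used for clustering. In this cluster 78.9% of barcodes held at least 1 unique molecular identifier (UMI) of each of Flt1, Ly6c1 and Itm2a, and 99.6% held at least 1 of the 3. Endothelial barcodes numbered 31 to 174 in 9 libraries, with 20855 to 566710 UMIs a library. In CORT/Sal mouse 9970 only 11 were found, with 3411 UMIs, and 2348 of its 2397 kept barcodes formed a cluster almost without other libraries (cluster 12). This library kept 97.1% of its barcodes, against 16.8% to 31.0% in the others. Results that rest on this library are therefore given with and without it. The libraries of mice 9946, 9947, 9967 and 9970, 1 in each group, held 0 to 3 microglia, against 118 to 171 in the other 6, and this split is called the microglia split here. Endothelial cells of mice 9946, 9947 and 9967, but not of mouse 9970, were also lower in immediate early genes, which enzymatic dissociation is known to induce. A list of 13 such genes summed to 623 to 1117 CPM (a gene's UMIs scaled to a common total of UMIs in the class and library) in mice 9946, 9947 and 9967, 11140 CPM in mouse 9970, and 4508 to 13591 CPM in the other 6. The same barcode sequence occurred in 2 or more libraries 120 times among all barcodes and 3 times among the endothelial ones.

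The 10 genes lie on 7 chromosomes. On NCBIM37 (mm9) by Ensembl identifier, Cldn5 (ENSMUSG00000041378) lies at chr16:18776940-18778353 on the plus strand, Slc2a1 (ENSMUSG00000028645) at chr4:118781316-118809935 on the plus strand and Mfsd2a (ENSMUSG00000028655) at chr4:122624093-122638431 on the minus strand. Slco1c1 (ENSMUSG00000030235, chr6:141472907-141518241, plus strand) and Slco1a4 (ENSMUSG00000030237, chr6:141753961-141804720, minus strand) are near neighbours on chromosome 6, where Abcg2 (ENSMUSG00000029802, chr6:58534517-58642863, plus strand) also lies. Abcb1a (ENSMUSG00000040584) lies at chr5:8660077-8748575 on the plus strand, Tjp1 (ENSMUSG00000030516) at chr7:72441051-72516125, Ocln (ENSMUSG00000021638) at chr13:101266462-101322673 and Slc7a5 (ENSMUSG00000040010) at chr8:124405052-124431594, the last 3 on the minus strand. RefSeq windows on GRCm38.p6, from 250 bases before to 50 after a gene's start, were matched by symbol for 9 of the 10 genes (12 windows), and Slc7a5 had no entry. Short motifs were searched on both strands: CAGGAA (an ETS core with its flank), ATCAAAG (TCF/LEF), AGAACA (a glucocorticoid half-site) and TGTTTAC (FOX). CAGGAA was in 3 of the 12 windows (of Abcg2 and Mfsd2a) and in 30.6% of all 32851 windows, AGAACA in 1 (Abcb1a) and in 19.0%, TGTTTAC in 1 (Abcb1a) and in 3.65%, and ATCAAAG in 0 and in 3.73%. A match is a description of the letters and not a binding site. The windows of 3 genes are shown, with any match in capitals: that of Abcb1a, the single one with the glucocorticoid half-site, that of Cldn5, the gene whose mean endothelial CPM differed most between CORT and BCD mice, and that of Mfsd2a, the gene most shared with other cell classes. They lie at chr5:8566841-8567140 (plus strand), chr16:18776597-18776896 (plus strand) and chr4:122961139-122961438 (minus strand) of GRCm38.p6, and in Abcb1a the first match is the FOX motif read on the other strand and the second the half-site.
Abcb1a: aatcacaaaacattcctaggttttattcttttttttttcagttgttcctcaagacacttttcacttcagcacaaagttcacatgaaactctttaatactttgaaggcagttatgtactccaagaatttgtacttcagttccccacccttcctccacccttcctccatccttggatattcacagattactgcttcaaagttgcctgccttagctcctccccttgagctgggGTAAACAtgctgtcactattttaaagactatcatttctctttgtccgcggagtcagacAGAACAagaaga
Cldn5: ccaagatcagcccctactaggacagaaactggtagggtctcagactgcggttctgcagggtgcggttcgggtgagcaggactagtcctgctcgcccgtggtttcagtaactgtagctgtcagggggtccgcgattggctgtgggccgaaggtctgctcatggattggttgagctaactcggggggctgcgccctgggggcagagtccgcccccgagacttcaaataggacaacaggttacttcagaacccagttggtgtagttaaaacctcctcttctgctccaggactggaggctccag
Mfsd2a: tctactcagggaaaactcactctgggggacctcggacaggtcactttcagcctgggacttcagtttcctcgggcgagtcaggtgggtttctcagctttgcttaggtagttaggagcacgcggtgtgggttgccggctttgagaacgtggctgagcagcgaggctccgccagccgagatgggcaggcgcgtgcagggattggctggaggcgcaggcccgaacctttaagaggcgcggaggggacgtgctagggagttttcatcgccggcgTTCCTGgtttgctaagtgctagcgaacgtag

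Endothelial cells held most of the transcripts of 9 of the 10 genes. They made up 13.3% of kept barcodes and 14.1% of their UMIs, but gave 87.6% of the UMIs of Abcb1a, 86.3% of Cldn5, 85.5% of Slco1a4, 82.0% of Ocln, 79.8% of Abcg2, 75.2% of Slc7a5, 73.4% of Slc2a1, 66.2% of Slco1c1 and 50.7% of Tjp1. For Mfsd2a the share was 41.9%. The mean endothelial level was 4807 ± 1425 CPM for Cldn5 (SD, n = 10 libraries), 3112 ± 1100 CPM for Slco1a4, 1814 ± 452 CPM for Slc2a1, 1620 ± 476 CPM for Slco1c1, 1372 ± 294 CPM for Abcb1a, 823 ± 196 CPM for Abcg2, 735 ± 201 CPM for Tjp1, 675 ± 152 CPM for Slc7a5, 281 ± 50 CPM for Mfsd2a and 187 ± 79 CPM for Ocln. These CPM are not divided by transcript length, so they serve to compare classes for a gene and not genes with each other. The classes come from clusters of the same cells, so a class against another is described without a test. Endothelial cells stood above every other class with at least 10 barcodes (cluster 12 not counted) in all 10 libraries for 7 of the genes. They did so in 9 of 10 for Ocln and Tjp1, and in 7 of 10 for Mfsd2a. For Ocln the exception was mouse 9970, where neither endothelial cells nor the classes set against them held a UMI of it. For Tjp1 it was mouse 9969, where mural cells were at 435 CPM and endothelial cells at 427 CPM. Mural cells, astrocytes, microglia and oligodendrocyte precursors reached 10 barcodes in the same 6 libraries only. The other libraries could therefore not show these classes above endothelial cells. For Mfsd2a, precursors stood above endothelial cells in mice 9949 (371 against 279 CPM), 9968 (352 against 281) and 9971 (389 against 201). The precursors stood below in mice 9901 (293 against 315 CPM), 9969 (220 against 301) and 9986 (124 against 234). Apart from the mural class, which is described next, the second level among the named classes was far lower for the pumps and for Cldn5. The ratio of endothelial cells to that second named class was 138 for Cldn5 (immune cells at 34.8 CPM, from 7 UMIs, with the unnamed cluster 2 at 39.2 CPM), 48.1 for Slco1a4 and 47.2 for Abcb1a (both ependymal and choroid cells), 22.2 for Slc7a5 and 10.2 for Abcg2 (both oligodendrocyte precursors, OPCs).

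**Figure D1:**
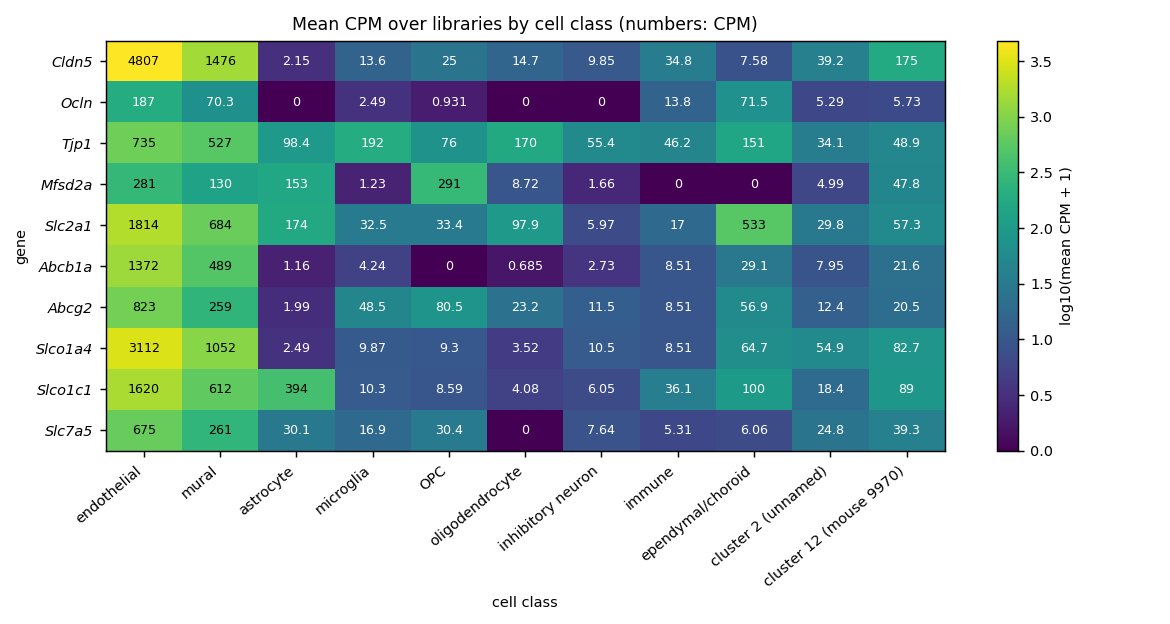
Each cell gives the mean CPM of a gene (rows) in a cell class (columns) over the libraries with at least 10 barcodes of the class, and the colour is log10 of the mean CPM plus 1. The endothelial column is the brightest for 9 of the 10 genes, and for Mfsd2a the OPC column (291 CPM) is level with it (281 CPM).

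The mural class, of pericytes and smooth muscle cells, appeared to hold all 10 genes, but apart from Tjp1 and some Abcg2 those transcripts sat in barcodes that also held endothelial markers. Its mean level was 1476 ± 460 CPM for Cldn5 (SD, n = 6 libraries) and 1052 ± 209 CPM for Slco1a4. Of 263 mural barcodes, 155 held no UMI of Flt1, Ly6c1 or Itm2a, 68 held all 3 and 40 held 1 or 2 of them. In the 155 barcodes Cldn5 was at 4.33 CPM (1 UMI), Slc2a1 at 17.3 CPM and Abcb1a at 13.0 CPM, and no UMI of Ocln or Mfsd2a was seen. In the 68 barcodes, whose median depth of 4162 UMIs compares with 1115 UMIs in the 155, Cldn5 was at 2735 CPM, Slc2a1 at 1278 CPM and Abcb1a at 891 CPM. Tjp1 differed from the rest of the set, with 342 CPM in the 155 mural barcodes without endothelial markers and 634 CPM in the 68. Abcg2 was at 69.3 CPM in the 155 and 430.2 CPM in the 68. Doublets were not removed, and whether the 68 barcodes each hold a single cell was not tested.

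In cluster 12, the large cluster of mouse 9970, the 10 genes lay at 1.52% (Abcb1a) to 17.3% (Mfsd2a) of their endothelial level. Cldn5 was seen there in 23.7% of 2350 barcodes at a median depth of 1467 UMIs, with 175 CPM, which is 3.50% of its endothelial level. In microglia, which should lack the gene, Cldn5 was seen in 0.462% of 866 barcodes at a median depth of 1588.5 UMIs. The members' counts in cluster 12 did not keep the ratios they had in endothelial cells, and their source was not tested.

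Mfsd2a, Slco1c1, Slc2a1 and Tjp1 were also found in glia. Mfsd2a reached 291 ± 103 CPM in OPCs (SD, n = 6 libraries), the level of endothelial cells, and 153 ± 48 CPM in astrocytes, against 1.23 ± 1.94 CPM in microglia. OPC libraries ranged from 124 to 389 CPM, and the endothelial range of 201 to 384 CPM lay inside it. Slco1c1, the thyroxine carrier, was at 394 ± 65 CPM in astrocytes, 4.11 times below endothelial cells, and at 4.08 to 10.3 CPM on average in microglia, OPCs, oligodendrocytes and inhibitory neurons. Slc2a1 was at 533 ± 167 CPM in ependymal and choroid cells (n = 4), 174 ± 41 CPM in astrocytes and 97.9 ± 18.8 CPM in oligodendrocytes (n = 8). Tjp1 was the most widely spread of the 10, with means of 46.2 CPM (immune cells) to 192 CPM (microglia) in the named classes other than endothelial and mural. Ocln had no UMI in 1286 astrocytes, which allows a level of up to 1.17 CPM (3 counts, counting error only). The limit on barcodes with a UMI, 0.233%, is one of detection and not of cells with the transcript, since endothelial cells too showed an Ocln UMI in 31.9% of barcodes only. It was at 71.5 ± 44.7 CPM in ependymal and choroid cells, whose epithelium also forms tight junctions. Slc7a5 had no UMI in 381 oligodendrocytes, which allows up to 2.93 CPM.

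**Figure D2:**
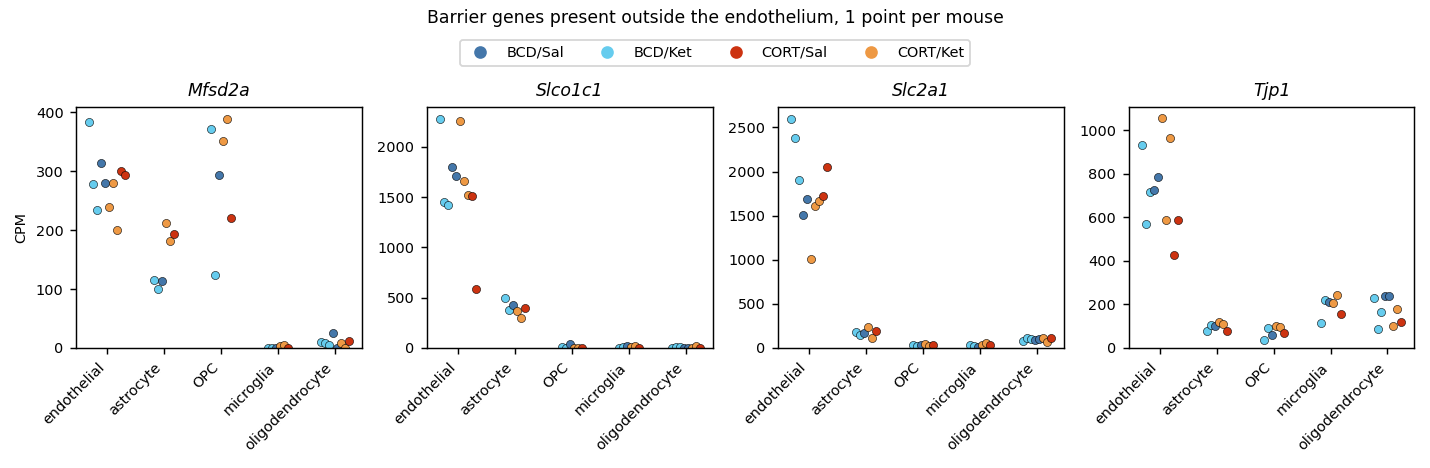
Points are single mice, coloured by group, and the y axis gives CPM in 5 cell classes for the 4 genes that reach beyond the endothelium. Mfsd2a overlaps between endothelial cells and OPCs, and in astrocytes the 3 CORT mice (181 to 212 CPM) stand above the 3 BCD mice (101 to 116 CPM).

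Counted by barcode at an equal depth, nearly every endothelial barcode held at least 1 of the 10 genes, and single members were seen in 22.6% to 95.5% of barcodes. After thinning to 1000 UMIs, 716 endothelial barcodes remained and 386 were too shallow. Cldn5 was seen in 95.5% of them (97.9% before thinning), Slco1a4 in 88.0%, Slc2a1 in 78.1%, Slco1c1 in 75.3% and Abcb1a in 72.9%. Abcg2 was seen in 54.7%, Tjp1 in 46.4%, Slc7a5 in 44.8%, Mfsd2a in 25.3% and Ocln in 22.6%. The mean barcode held 6.04 of the 10 genes, and 2 of the 716 held none. Means by mouse ran from 5.70 (CORT/Sal mouse 9969) to 6.39 (BCD/Ket mouse 9946) among libraries with at least 10 barcodes of that depth. In microglia at the same depth (713 barcodes) Cldn5 was seen in 0.421%, Slco1a4 in 0.701%, Abcb1a in 0.140% and Mfsd2a in none (exact 95% upper bound 0.516%). Mfsd2a was seen in 26.2% of 244 OPCs (exact 95% interval 20.8% to 32.2%) and in 14.5% of 960 astrocytes, and Slco1c1 in 30.5% of those astrocytes.

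The 5 genes outside the set listed next were closest to its mean profile over the 9 named classes, on log2(CPM + 10), among 1856 genes with at least 100 CPM in endothelial cells and no marker. They were Nos3 (endothelial nitric oxide synthase; Pearson r = 0.987 across 9 classes), Wfdc1 (0.986), Prom1 (prominin-1; 0.986), Fzd6 (a Wnt receptor; 0.985) and Cyyr1 (0.984). The members themselves ran from 0.661 (Mfsd2a) to 0.975 (Abcb1a and Slco1a4). The points share libraries and depth.

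Among mice, the spread of the endothelial level differed from gene to gene. Without mouse 9970, the coefficient of variation over 9 libraries was 7.35% for Abcb1a, which ranged from 1299 to 1583 CPM, and between 18.8% and 28.9% for the other 9 genes, with Cldn5 (28.9%), Slco1a4 (27.5%), Tjp1 (27.4%) and Slc2a1 (26.4%) at the top. With all 10 libraries it was 21.4% for Abcb1a (586 to 1583 CPM, the lowest from 2 UMIs), 17.9% for Mfsd2a, 42.3% for Ocln and 35.3% for Slco1a4, so this order of the genes depends on mouse 9970.

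Within the endothelial class, 3 transporters were lower in barcodes with more arterial UMIs than in those with more venous UMIs. Barcodes were split by 10 arterial genes (such as Bmx and Efnb2) and 10 venous genes (such as Nr2f2 and Slc38a5), none of which is a member, into 316 with more arterial UMIs, 417 with more venous UMIs, 325 with neither and 44 tied. Median depths of the first pair were 1830 and 1723 UMIs. Over the 8 libraries with at least 10 barcodes on each side, Slc7a5 was at 399 ± 191 CPM on the arterial and 740 ± 148 CPM on the venous side (SD, n = 8), Slco1a4 at 2248 ± 516 and 3410 ± 978 CPM, and Abcg2 at 638 ± 132 and 945 ± 305 CPM. All 3 were lower on the arterial side in 8 of 8 libraries, with median ratios of 0.479, 0.689 and 0.748, as were 1.9% of all tested genes. Tjp1 was lower in 7 of 8, with a median ratio of 0.733. For Mfsd2a and Slc2a1 the arterial side was higher in 5 and 4 of 8 libraries, and Abcb1a, Cldn5 and Ocln were higher there in 2 of 8 each and Slco1c1 in 3 of 8. Pooled over libraries, barcodes with neither held 943 CPM of Slc7a5 (arterial 437, venous 791) and 3904 CPM of Slco1a4 (2154 and 3044). They held 868 CPM of Abcg2 (632 and 885) and 373 CPM of Mfsd2a (265 and 243). Their median depth was 841 UMIs. In mouse 9947 the arterial and venous sides had 11 and 14 barcodes, with 1 and 5 UMIs of Slc7a5. These are descriptions of cells of the same libraries, without a test.

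**Figure D3:**
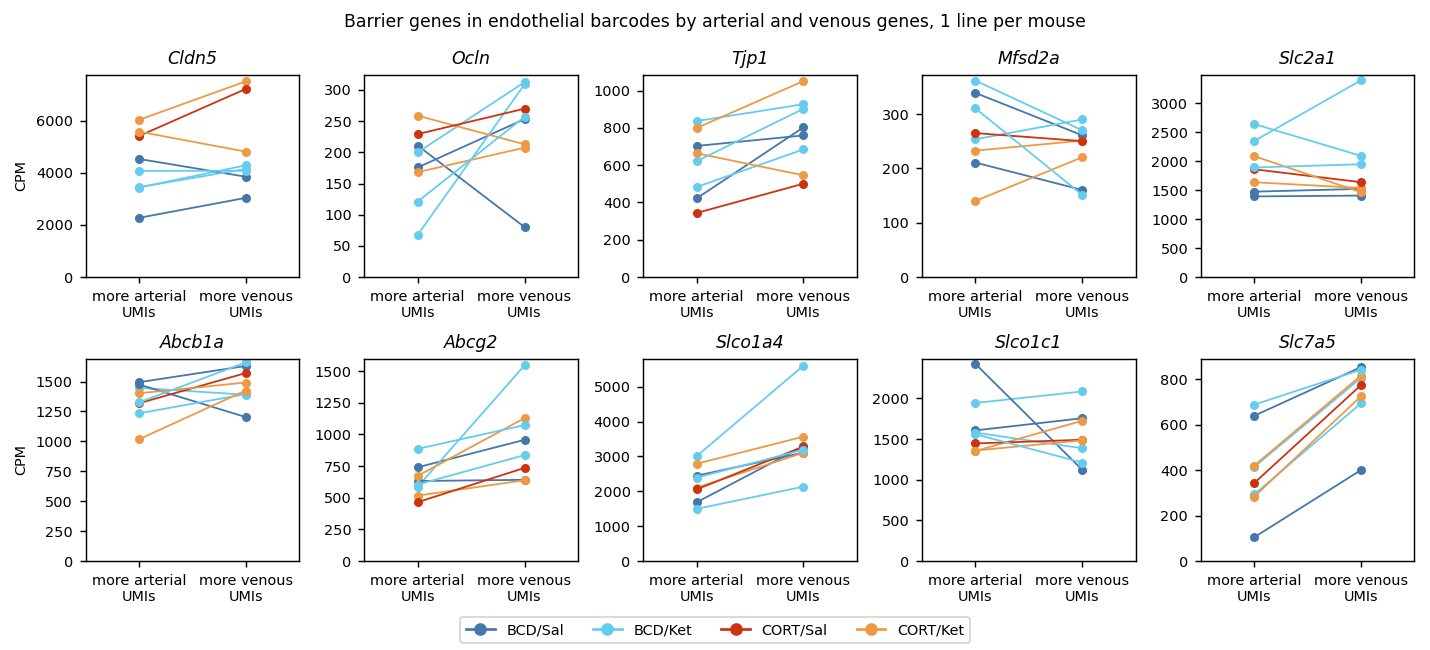
Each line joins the CPM of a gene in the endothelial barcodes of 1 mouse with more arterial and with more venous UMIs, coloured by group. The lines of Slc7a5, Slco1a4 and Abcg2 rise towards the venous side in 8 of 8 mice, and those of Mfsd2a and Slc2a1 run both ways.

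Endothelial barcodes rich in immediate early genes had lower CPM of several members. A second implementation of the clustering set 308 of the 1102 barcodes apart (27.9%), led by such genes, of which 2 came from mouse 9970, 0 from mice 9946, 9947 and 9967, and the rest from the 6 libraries rich in microglia. Within each of these 6 libraries the 308 were compared with the rest. Slco1a4 was lower in 6 of 6, at a median ratio of 0.573 (range 0.557 to 0.651). Slco1c1 (0.770), Cldn5 (0.812), Abcg2 (0.817), Slc2a1 (0.863) and Slc7a5 (0.882) were also lower in 6 of 6. Tjp1 was higher in 1 of 6 (0.877), Mfsd2a (0.841) and Ocln (0.758) in 2 of 6, and Abcb1a in 3 of 6 (0.997). Of all tested genes 4.1% were lower in 6 of 6. The CPM of other genes fall where early genes take more of the total, and the part of this in the ratios was not tested. Between mice, Slco1a4 was highest in mice 9967 (4795 CPM) and 9946 (4714 CPM), whose early genes summed to 623 and 1117 CPM, and lowest after mouse 9970 in mouse 9949 (1895 CPM), with 13591 CPM of early genes. Mouse 9947, with 645 CPM of early genes, held 3255 CPM of Slco1a4. That was near mice 9901 (3048 CPM) and 9986 (2985 CPM), whose early genes summed to 5386 and 4508 CPM. The part of dissociation in these levels was not tested.

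Under corticosterone, Cldn5 was the member that stood apart. Its endothelial level was 2857 CPM in mouse 9901 and 4462 CPM in mouse 9947 (BCD/Sal), and 4119, 3937 and 4159 CPM in mice 9946, 9949 and 9986 (BCD/Ket). It was 6818 CPM in mouse 9969 and 3518 CPM in mouse 9970 (CORT/Sal), and 5610, 7273 and 5318 CPM in mice 9967, 9968 and 9971 (CORT/Ket). Every CORT mouse but 9970 thus lay above every BCD mouse, and the value of mouse 9970 rests on 12 UMIs. Without mouse 9970, 0.957% of 7838 tested genes lay above in CORT mice with no overlap and 0.714% below, and Cldn5 was the 1 member of 10 that did. With all libraries the shares were 0.138% and 0.537%, with 0 members. The means were 3907 ± 616 CPM in BCD mice (SD, n = 5) and 5708 ± 1470 CPM in CORT mice (n = 5), or 6255 ± 940 CPM without mouse 9970 (n = 4). An exact two-sided permutation test gave p = 0.0397 with all 10 libraries, where the smallest p the design allows is 0.00794. Without mouse 9970, the exact two-sided permutation test gave p = 0.0159, and with the groups fully apart no smaller p was possible. These p-values are unadjusted, from 45 such tests that were added after the levels were seen.

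In the fit across all genes, Cldn5 did not pass the threshold (adjusted p of 0.05, Benjamini-Hochberg). With all libraries, edgeR's quasi-likelihood test gave a log2 change of 0.40 (SE 0.43, adjusted p = 0.980) for CORT against BCD, averaged over both injections, and without mouse 9970 a log2 change of 0.76 (SE 0.32, unadjusted p = 0.0204, adjusted p = 0.896). Mouse 9970 entered the fit with a TMM scaling factor of 2.66, against 0.806 to 1.09 in the other libraries. The log2 change was -0.53 without mouse 9969, when mouse 9970 alone stood for CORT/Sal. Within the 6 libraries rich in microglia it was 0.93 (SE 0.24) and passed, although BCD/Sal and CORT/Sal then held 1 library each. The share of all genes that passed in that fit is not given here. In the other 4 libraries the levels of the CORT mice (3518 and 5610 CPM) lay on either side of those of the BCD mice (4462 and 4119 CPM). With a term for the microglia split the log2 change was 0.30 (adjusted p = 0.969). Endothelial markers summed to 13132 to 19786 CPM in endothelial cells of BCD mice and 15488 to 21099 CPM in those of CORT mice, mural markers to 851 to 2136 and 1427 to 2158 CPM, and microglia markers to 0 to 134 and 0 to 478 CPM. Their part in the Cldn5 level was not tested. In each vessel part the CORT mice with at least 10 barcodes lay above the BCD mice. Mouse 9970 reached 10 barcodes in no part, and mouse 9967 only among barcodes with neither arterial nor venous UMIs. In barcodes with more arterial UMIs, Cldn5 was at 5408 to 6027 CPM in 3 CORT mice and 2273 to 4533 CPM in 5 BCD mice. In those with more venous UMIs it was at 4812 to 7506 CPM in 3 CORT mice and 3038 to 4286 CPM in 5 BCD mice. In those with neither it was at 6226 to 10655 CPM in 4 CORT mice and 3312 to 5285 CPM in 5 BCD mice. Of all tested genes 2.36%, 2.1% and 0.522% lay above in the same way in these 3 parts, which share their mice.

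**Figure D4:**
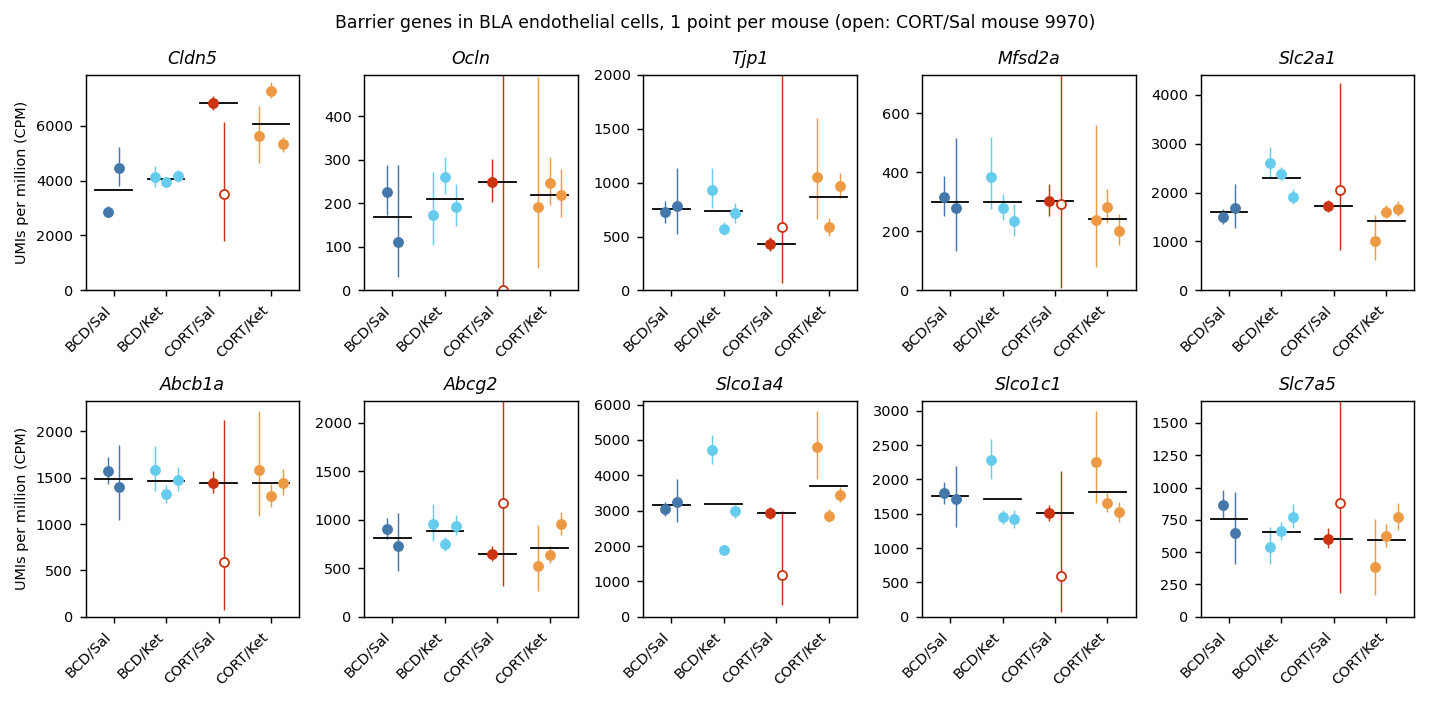
Points are the CPM of each gene in the endothelial cells of single mice by group, bars are exact Poisson 95% intervals (counting error only, cut off at the axis limit in some panels), and black lines are group means without CORT/Sal mouse 9970, the open point, so that the CORT/Sal line is mouse 9969 alone. Cldn5 is at 5318 CPM or more in 4 CORT mice and at 4462 CPM or less in the BCD mice, and the group mean of Slc2a1 is highest in BCD/Ket (2297 CPM).

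No member passed the threshold for corticosterone with all libraries, where 0.169% of 6517 tested genes did (11 genes, 3 higher and 8 lower). Nor did one at an unadjusted p below 0.05, which 377 genes reached, and DESeq2 called 0 genes. All 10 members were among the genes tested. Without mouse 9970, 0.0893% of 7838 genes passed (7 genes), with no member among them. Their log2 changes lay between -0.47 and 0.40 with a median of -0.34, against -0.04 over all genes, and 8 of 10 were negative. Without mouse 9970 they lay between -0.30 and 0.76 with a median of -0.10, and without mouse 9969 the median was -0.94. Abcb1a, the drug pump, was at 1473 ± 112 CPM in BCD mice (SD, n = 5) and at 1272 ± 396 CPM in CORT mice (n = 5), or 1443 ± 116 CPM in CORT mice without 9970 (n = 4). Its difference had a 95% interval of -1.14 to 0.47 on the log2 scale with all libraries and of -0.70 to 0.62 without mouse 9970. These intervals give the changes compatible with the fit. They are not a limit beyond which a change would have passed the threshold. Their width rests largely on a spread shared between genes and not on that of Abcb1a alone.

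**Figure D5:**
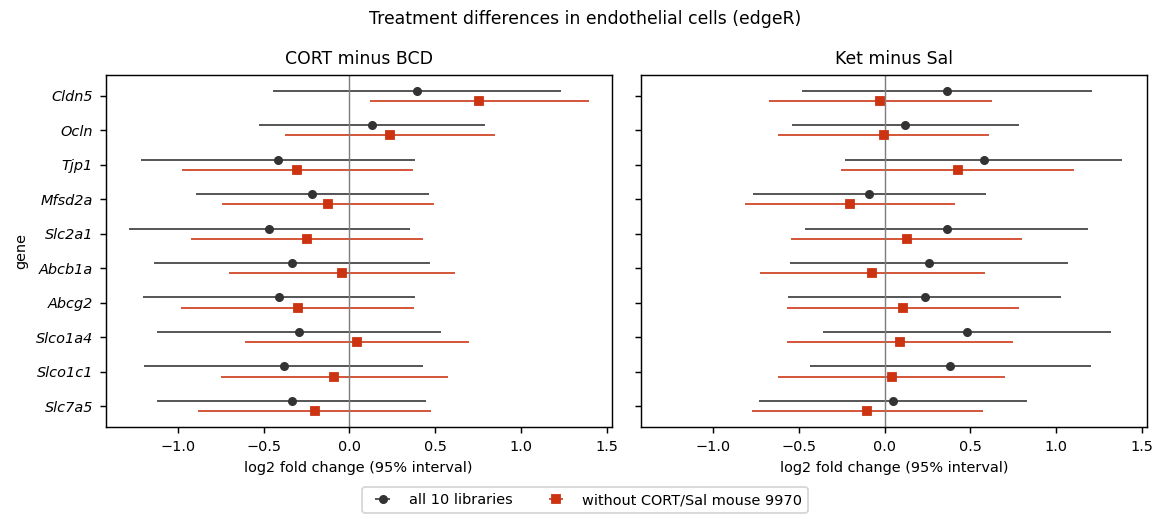
Points are edgeR log2 fold changes of the 10 genes in endothelial cells for CORT minus BCD (left) and Ket minus Sal (right), with 95% intervals, from all 10 libraries (circles) and without CORT/Sal mouse 9970 (squares). All intervals cover 0 except that of Cldn5 for CORT minus BCD without mouse 9970 (0.12 to 1.40).

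In CPM, Slc2a1, the glucose transporter, was ordered by ketamine in opposite ways in the 2 drinking groups, without passing a test across all genes. It was at 1506 and 1684 CPM in BCD/Sal mice 9901 and 9947, and at 2599, 2382 and 1909 CPM in BCD/Ket mice 9946, 9949 and 9986. It was at 1721 and 2052 CPM in CORT/Sal mice 9969 and 9970, and at 1007, 1607 and 1669.9 CPM in CORT/Ket mice 9967, 9968 and 9971. Every BCD/Ket mouse lay above every BCD/Sal mouse, and every CORT/Ket mouse below both CORT/Sal mice, the values of mice 9970 and 9967 resting on 7 and 21 UMIs. Of all tested genes, 10.2% lay without overlap above in BCD/Ket against BCD/Sal and 9.31% below, 14.5% above in CORT/Ket against CORT/Sal and 5.46% below, and 2.67% separated in opposite ways. Among the members Slc2a1 alone separated in BCD mice, and in CORT mice Tjp1 and Slco1c1 lay above and Mfsd2a and Slc2a1 below. For Mfsd2a, CORT/Sal mice 9969 and 9970 were at 301 and 293 CPM, the latter from 1 UMI. The highest CORT/Ket mouse was at 281 CPM. For Slco1c1 they were at 1510 and 586 CPM, and the lowest CORT/Ket mouse was at 1524 CPM. In edgeR's fit of all libraries the log2 change of Slc2a1 had the same sign in both drinking groups. It was 0.62 (SE 0.59) for BCD/Ket against BCD/Sal and 0.11 (SE 0.60) for CORT/Ket against CORT/Sal, the latter -0.38 (SE 0.52) without mouse 9970. The difference of the ketamine effects, tested directly, was -0.51 on the log2 scale (SE 0.83, adjusted p = 0.999 by edgeR) and -1.01 without mouse 9970 (SE 0.67, adjusted p = 0.993), and without mouse 9969 it was 0.34. The 13 early genes had a median log2 change of 1.06 in BCD/Ket against BCD/Sal and of -0.20 in CORT/Ket against CORT/Sal, and their part in the result was not tested. CORT/Ket against BCD/Ket, where 3 mice faced 3, gave a log2 change of -0.72 (SE 0.52, adjusted p = 1.00) and of -0.75 without mouse 9970 (SE 0.38). Mouse 9970 is in neither of these groups. It enters the comparison only through steps shared by all libraries, such as the spread shared between genes. In that comparison 0.0921% of genes passed (6 genes) and none of the members did. For corticosterone over both injections the log2 change of Slc2a1 was -0.47 (SE 0.42) with all libraries and -0.25 (SE 0.34) without mouse 9970.

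For ketamine over both drinking groups 0.0153% of genes passed (1 gene) and none of the members. DESeq2 called 0 genes, and 125 genes but no member reached an unadjusted p below 0.05. The members' log2 changes lay between -0.09 and 0.58, with a median of 0.31, which was 0.02 without mouse 9970 and 1.13 without mouse 9969. The highest was that of the scaffold gene Tjp1, 0.58 (SE 0.41) and 0.43 (SE 0.34) without mouse 9970. Tjp1 was at 725 and 786 CPM in BCD/Sal, at 934, 572 and 715 CPM in BCD/Ket, at 427 and 586 CPM in CORT/Sal and at 1055, 588 and 967 CPM in CORT/Ket. Its lowest CORT/Ket value (588 CPM) was about that of mouse 9970 (586 CPM from 2 UMIs). CORT/Ket against CORT/Sal gave a log2 change of 1.12 (SE 0.62, adjusted p = 1.00) and of 0.80 without mouse 9970 (SE 0.55). With all libraries, 0.0921% of genes passed for CORT/Sal against BCD/Sal (6 genes). The percentage was 0% for CORT/Ket against CORT/Sal, for BCD/Ket against BCD/Sal and for the difference of the ketamine effects. In these 4 comparisons DESeq2 called 0 genes with all libraries. By edgeR 421, 137, 227 and 237 genes reached an unadjusted p below 0.05, and no member did. Without mouse 9970, mouse 9969 alone stood for CORT/Sal. The members' log2 changes for CORT/Sal against BCD/Sal then lay between -0.68 and 1.07 (Cldn5), and between -0.96 and 0.30 with all libraries. For CORT/Ket against CORT/Sal they lay between -0.43 and 0.80 (Tjp1), and between -0.19 and 1.12 with all libraries.

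The other genes of the barrier were alike in this respect. None of 12 tested junction genes (of 16 listed, such as Cdh5, Pecam1 and Cgnl1), 17 other transporters (of 21), 17 genes of the Wnt signalling that maintains the barrier, 5 genes of permeability (of 10, such as the caveolin gene Cav1), 9 arterial and 8 venous genes (of 10 each) passed in any of the 7 comparisons. These lists overlap. The venous list shares Icam1 and Vcam1 with the permeability list and Slc38a5 with the transporters, and Ctnnb1 is on the junction and Wnt lists. The median log2 change for corticosterone was -0.17 for the junction genes, -0.19 for the transporters, 0.09 for the Wnt genes and 0.14 for the permeability genes, against -0.04 over all genes. The 13 early genes had medians of 0.23 for corticosterone and 0.48 for ketamine, with no gene past the threshold. Of 10 tested glucocorticoid targets (12 listed), 2 fell under corticosterone and 0 rose: Tsc22d3 (a leucine zipper protein that mediates glucocorticoid action; log2 change -1.95, SE 0.37, adjusted p = 0.000206 by edgeR) and Ddit4 (an mTORC1 inhibitor; log2 change -1.46, SE 0.36, adjusted p = 0.0409). Tsc22d3 also fell in CORT/Ket against BCD/Ket (log2 change -1.99, SE 0.43, adjusted p = 0.00764). Of the 10 targets 9 had a negative log2 change for corticosterone, with a median of -0.72. DESeq2 called neither gene. Tsc22d3 also passed for corticosterone without mouse 9970 (log2 change -1.88, adjusted p = 0.000818), and Ddit4 did not (-1.50, adjusted p = 0.0692). Both calls were lost without CORT/Sal mouse 9969, and that of Ddit4 also without mouse 9901, 9946, 9949, 9986 or 9968. In CORT/Ket against BCD/Ket, Tsc22d3 was lost without mouse 9949, 9968 or 9971.

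In astrocytes, Mfsd2a stood higher in the CORT mice without passing the test across all genes. At least 10 astrocytes were found in 6 libraries. BCD/Sal and CORT/Sal held 1 of them each, which left edgeR's fit 2 residual degrees of freedom. Mfsd2a was at 113 CPM in BCD/Sal mouse 9901, at 116 and 101 CPM in BCD/Ket mice 9949 and 9986, at 194 CPM in CORT/Sal mouse 9969, and at 212 and 181 CPM in CORT/Ket mice 9968 and 9971. All 3 CORT mice lay above all 3 BCD mice, as in 6.06% of tested genes, with means of 196 and 110 CPM, and the exact two-sided permutation p of 0.1 is the smallest that 3 against 3 allows. Cldn5 was at 2.33 CPM over all astrocytes (6 UMIs). In edgeR's fit the log2 change for corticosterone over both injections was 0.79 (SE 0.25, 95% interval 0.29 to 1.29, unadjusted p = 0.00225, adjusted p = 0.279), a comparison added after the levels were seen, in which 0.024% of 8317 genes passed (2 genes) and none of the 5 members that passed the filter on low counts. DESeq2 called 0 genes. In CORT/Ket against BCD/Ket, 2 mice against 2, the log2 change was 0.83 (SE 0.28, unadjusted p = 0.00432, adjusted p = 1.00), 0% of genes passed, 258 reached an unadjusted p below 0.05, and DESeq2 called 0. The other 4 members tested did not separate the drinking groups: Tjp1, Slc2a1, Slco1c1 and Slc7a5 overlapped between CORT and BCD mice. In endothelial cells the log2 change of Mfsd2a for corticosterone was -0.22 (SE 0.35), of opposite sign, and the difference between the cell types was not tested. BCD/Ket against BCD/Sal was not tested in astrocytes, since BCD/Sal had 1 library with 10 such cells.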

How the data were processed

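Libraries were made with the 10x Chromium system, and the authors ran Cell Ranger (the file headers name version 3.0.2) with mm9 as the genome. The annotation is not given in the sources used here. The deposited values are UMI counts for each gene in each barcode, not normalized. The PFC libraries were not used here.

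Counts were scaled to 10000 a barcode and log-transformed, and clustered on 2000 variable genes without the members, 30 principal components, 20 neighbours and Leiden resolution 0.8 (scanpy 1.11.5, igraph 0.11.9, seed 1). A cluster was named by at least 3 markers of 1 class among its 50 leading genes, ranked by fold among genes in at least 10% of its barcodes. Counts were summed per library and class (at least 10 cells) and tested in 1 fit of the 4 groups with edgeR 4.0.16 (TMM, filterByExpr, robust quasi-likelihood test), with DESeq2 1.42.0 as the alternative, in R 4.3.3, and permutation tests in scipy 1.17.1. The SE is the log2 change divided by the root of F. The fit was also run on simulated counts drawn from its own fitted spread. Their mean profile was the same in all libraries apart from planted changes. They held neither the shift of mouse 9970 nor the microglia split, so they cannot show how the fit handles these. CPM are summed counts over the class total, and single values carry exact Poisson intervals for counting error. n is the number of mice, 1 library each, and p-values set differences against the spread between them. In edgeR's fit of the endothelial libraries that spread was, for most genes, one shared between genes. An SE there does not follow a gene's own spread. The astrocyte fit had 2 residual degrees of freedom, so its SE and intervals also rest largely on a spread shared between genes.

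All members are named. Of the other lists, genes past the threshold are named, at most 5 per list and comparison, and the 5 genes most like the members' mean profile. The members, lists and tests were chosen with earlier results of these data known, and the igraph clustering was chosen after the clusters were seen. The list of early genes, the microglia split, the split of mural barcodes, the astrocyte comparison for corticosterone and the shares of tested genes that do not overlap between groups were added later. Alternatives are given at the end.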

Additional observations from a re-analysis of the deposited data

How the results depend on the processing

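The count of members past the threshold in endothelial cells was 0 in all 7 comparisons and under every alternative run (DESeq2, RLE factors, all genes without a filter, other limits on mitochondrial share, genes and cells, resolution 1.2, the marker gate, removal of high Scrublet scores, library totals alone, leidenalg clustering, a term for the microglia split and each library left out), with 1 exception. That was corticosterone with only the 6 libraries rich in microglia, where Cldn5 passed (log2 change 0.93). BCD/Sal and CORT/Sal held 1 library each in that fit, which tested 7019 genes. The share of all genes that passed there is not given here, so this result has no background beside it. In astrocytes it was 0 for CORT/Ket against BCD/Ket under the 9 alternatives run there (RLE factors, DESeq2, no filter and each of 6 libraries left out). For corticosterone in astrocytes only the log2 change of Mfsd2a was recomputed (0.74 to 0.86). The log2 change of Cldn5 for corticosterone ranged from -0.53 to 0.76 over the libraries left out, reversed without mouse 9969, and the ketamine difference of Slc2a1 from -1.01 to 0.34, reversed likewise. Removing mouse 9970 gave the other end of both ranges. A lone library left in a group was assumed to vary like the other groups. The adjusted p of Cldn5 lay between 0.0453 and 1.00 over its alternatives. The median over the members reversed to 0.080 for corticosterone with at least 500 genes a barcode and to -0.010 for ketamine with only the 6 libraries.

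Counts over all genes moved by more than 1.5 times in many settings: from 0 to 22 for corticosterone (11 as reported), 0 to 2 for ketamine (1), 0 to 15 for the difference of the ketamine effects (0), 0 to 12 for CORT/Sal against BCD/Sal (6), 0 to 4 for CORT/Ket against CORT/Sal (0), 0 to 12 for BCD/Ket against BCD/Sal (0), 0 to 16 for CORT/Ket against BCD/Ket (6), and 0 to 15 for CORT/Ket against BCD/Ket in astrocytes (0). The 22, 15, 12 and 12 genes were reached without BCD/Sal mouse 9947, and 0 genes for corticosterone without CORT/Sal mouse 9969. The cause was not tested. Mean endothelial CPM of the members moved by more than 1 SD in 1 recomputed value, Slc7a5, which went from 675 to 506 CPM at a mitochondrial limit of 5%. In 4 of the clusterings (resolution 1.2, 500 genes, Scrublet removal and leidenalg) the barcodes rich in early genes left the endothelial class. No paired analysis was possible because the groups hold different mice and share no replicate numbers. The number of endothelial cells in mice 9967 and 9970 limits every comparison of the CORT groups.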

Other observations

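The 11 genes that passed for corticosterone in endothelial cells are named here after their values were seen, beside Tsc22d3 and Ddit4 above. Dbp (log2 change -3.14, SE 0.44, adjusted p = 7.81e-09 by edgeR), Nr1d1 (-2.44, SE 0.41), Hlf (-2.30, SE 0.39), Nr1d2 (-2.29, SE 0.40), Tef (-1.94, SE 0.38) and Pik3ip1 (-1.42, SE 0.36) fell. Cytl1 (5.52, SE 0.84, adjusted p = 2.09e-07), Arntl (2.46, SE 0.59, adjusted p = 0.0222) and Hhex (1.55, SE 0.37, adjusted p = 0.0199) rose. Cytl1 no longer passed the filter on low counts without CORT/Ket mouse 9968, nor did Arntl without CORT/Ket mouse 9971. Dbp, Nr1d1, Hlf, Nr1d2 and Tef passed also without mouse 9970, and Pik3ip1, Cytl1, Arntl and Hhex did not. Without mouse 9969 none of the 11 passed, and DESeq2 called none of them. Leaving out BCD/Sal mouse 9901, so that mouse 9947 alone stood for BCD/Sal, reversed Dbp to a log2 change of 0.82 (SE 2.44). The other genes kept their sign there, but not all of them kept their call. Nr1d1 (-2.28, SE 0.66), Hlf (-1.62, SE 0.68) and Tef (-1.74, SE 0.57) were among those that lost it. Without mouse 9969, when mouse 9970 alone stood for CORT/Sal, Arntl (-0.62, SE 4.37) and Hhex (-2.44, SE 4.78) reversed. Nr1d1, Nr1d2 and Arntl are core genes of the circadian clock. No list of clock genes was tested.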
